A study of Mus musculus with 6 samples.

Results

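The calbindins are a small set of cytosolic calcium-binding proteins, and their RNA was followed here in EGFP-positive cells of the mouse intermediate mesoderm at stage E11.5. The array's probe sets that map to exactly 1 of the symbols Calb1, Calb2 and S100g were taken, which gave 3 of 18193 measured genes: 4 probe sets for Calb1, 1 for Calb2 and 1 for S100g, or 6 of the 45101 on the array. Calb1 was chosen by its measured difference, the largest fall in this comparison, so its values are given as a description with no test, while Calb2 and S100g came in by family name.

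The genotypes were profiled on 3 arrays each. One was Pax2 null, with EGFP on both alleles (EGFP/EGFP in the titles), and the other Pax2 heterozygote, with a single EGFP allele (EGFP/+). Both were E11.5 embryos, the cells of both were sorted for EGFP from the dissected intermediate mesoderm region. Every sample therefore carries at least 1 EGFP allele, and there was no wild-type group. The labels do not say what drives EGFP, whether embryos were pooled, or whether samples came from separate litters, so the spread between arrays may be partly technical. The Pax2 protein is a DNA-binding regulator of early kidney formation, and the design asks which RNAs depend on it.

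Calbindins bind calcium through EF hands, helix-loop-helix folds that each hold an ion. Calb1 (the larger calbindin) and Calb2 (calretinin) carry several EF hands and buffer calcium in neurons. Calb1 is also a classic marker of the nephric duct and ureteric bud, the epithelium that forms the collecting ducts, and of the distal nephron, where it carries calcium across the cell. Calb2 also marks mesothelium. S100g (the smaller calbindin) is by sequence an S100 protein with a pair of EF hands, and is known from calcium-absorbing epithelia such as gut and kidney.

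Values below are log2 signals that the authors had processed with RMA, 1 per probe set and array. Differences are null minus heterozygote, with the standard error (SE) of the fit. A gene is said to have risen or fallen where limma's adjusted p was under 0.05 over all 18193 genes, taking for each the probe set of highest mean signal. Wt1, a marker of intermediate mesoderm derivatives, stood at 9.73, 9.57 and 9.84 on null arrays 1, 2 and 3, against 9.78, 9.76 and 9.87 on heterozygote arrays 1, 2 and 3. Wt1 is also a member of the mesothelium list below. Array medians lay between 6.12 and 6.24, and the number of arrays limits the precision. Arrays also matched in 3 pairs by their hybridization controls (pair 1 null 3 and heterozygote 1, pair 2 null 1 and heterozygote 2, pair 3 null 2 and heterozygote 3), a pairing that is not in the labels, so differences within pairs are given beside the members' values.

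Calb1 was lower on every null array than on every heterozygote array, in all 4 of its probe sets. Among all probe sets on the array, 6.13% had every null array below every heterozygote array. Nothing is read from the count of 4, since Calb1 was chosen for this difference and its probe sets measure a single RNA pool.

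The brightest Calb1 probe set (1417504_at, probe set A in the plots) stood at 3.39, 4.36 and 5.80 on null arrays 1, 2 and 3, against 10.81, 10.28 and 10.37 on heterozygote arrays 1, 2 and 3. It averaged 4.52 ± 1.22 in null cells and 10.49 ± 0.28 in heterozygote cells (log2, SD, n = 3 each), a difference of -5.97 ± 0.53 (SE), or 62.6-fold on the RMA scale. The null arrays were more spread than the heterozygote arrays, with null 3 highest and null 1 lowest. On its own array the null signal lay at the 12.5, 26.9 and 45.5 percentile of all probe sets, and the heterozygote signal at the 95.6, 93.0 and 93.5 percentile. The null values thus sat in the lower part of the scale, where RMA compresses differences and no detection call is in the table. Within pairs 1, 2 and 3 the differences were -5.00, -6.89 and -6.01.

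Probe set B of Calb1 (1456934_at) stood at 3.55, 2.77 and 3.12 on the null arrays, against 8.22, 8.38 and 7.37 on the heterozygote arrays. Its difference was -4.84 ± 0.31, or 28.7-fold, and it was -5.10, -4.83 and -4.60 within pairs 1, 2 and 3. Probe set C (1448738_at), designed on the same sequence record as A, stood at 3.83, 3.44 and 3.90 on the null arrays, against 6.98, 6.77 and 6.69 on the heterozygote arrays. Its difference was -3.08 ± 0.18, or 8.48-fold, with -3.08, -2.93 and -3.24 within the pairs. The genotypes were well apart in both, and the null arrays lay within 1 log2 unit of each other, unlike in A.

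Probe set D (1458836_at) stood at 3.12, 3.04 and 2.83 on the null arrays, against 4.13, 4.40 and 4.60 on the heterozygote arrays. It differed by -1.38 ± 0.18, or 2.60-fold, with -1.30, -1.28 and -1.55 within the pairs. Its heterozygote signal itself lay at the 24.5, 27.3 and 30.0 percentile of the arrays, so this probe set was dim in both genotypes. The 4 probe sets thus gave folds from 2.60 to 62.6 for the same gene, and their null values lay within a narrower band than their heterozygote values: null means ran from 2.996 to 4.52 and heterozygote means from 4.37 to 10.49. The mean over the 4 probe sets differed by -3.82 ± 0.17. The order of the null arrays was not shared either, since null 3 was highest in A and C and null 1 in B and D.

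**Figure D1:**
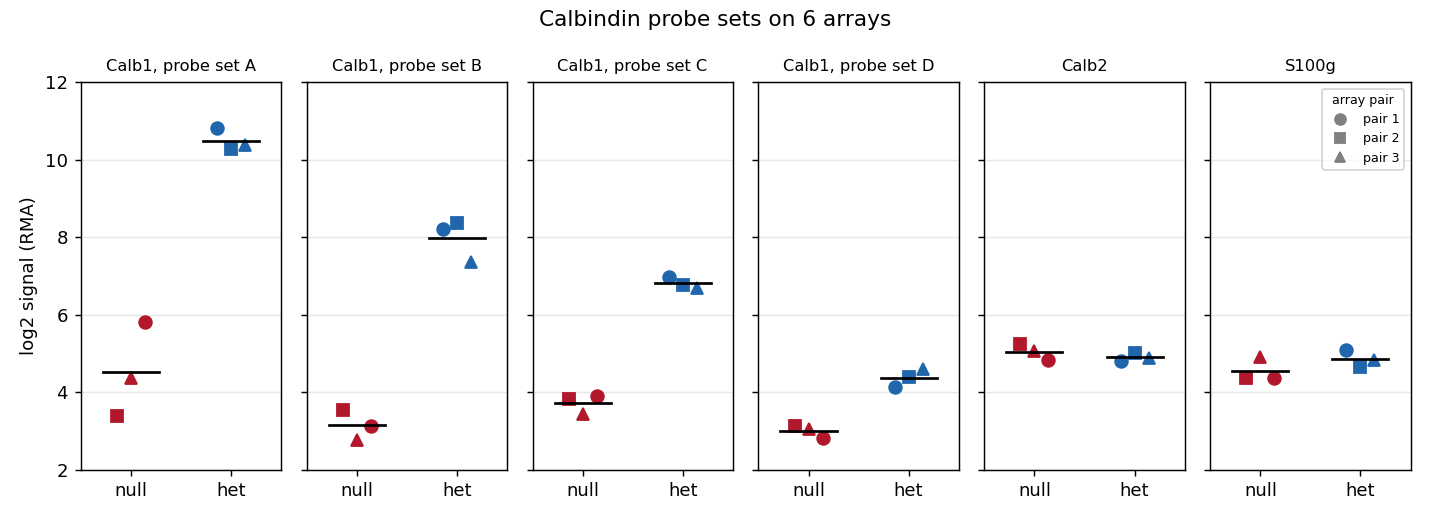
Log2 RMA signal (vertical axis) of the 6 calbindin probe sets on each array, null at the left and heterozygote (het) at the right of each panel; bars are means of 3 arrays and marker shapes the array pairs. All 4 Calb1 panels show null arrays below the heterozygote arrays, while the points of Calb2 and S100g overlap.

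Calb2 did not pass the test. Its only probe set (1451129_at) stood at 5.26, 5.06 and 4.82 on the null arrays, against 4.81, 5.01 and 4.88 on the heterozygote arrays, and the genotypes overlapped. The means were 5.05 ± 0.22 in null cells and 4.90 ± 0.10 in heterozygote cells (log2, SD, n = 3 each), a difference of 0.15 ± 0.17 (limma, adjusted p = 0.962). The 95% interval of the difference from limma ran from -0.24 to 0.54. Within pairs 1, 2 and 3 Calb2 differed by 0.017, 0.25 and 0.19, all positive. All signals lay between the 33.7 and the 38.5 percentile of their arrays, so Calb2 was dim in both genotypes.

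S100g did not pass the test either. Its probe set (1448964_at) stood at 4.36, 4.91 and 4.36 on the null arrays, against 5.08, 4.64 and 4.82 on the heterozygote arrays. Null 1 and null 3 lay below every heterozygote array, whereas null 2 lay above heterozygotes 2 and 3. The means were 4.54 ± 0.31 in null cells and 4.85 ± 0.22 in heterozygote cells (log2, SD, n = 3 each), a difference of -0.30 ± 0.21 (limma, adjusted p = 0.828). The 95% interval of the difference ran from -0.79 to 0.18. The pairs did not share a direction, with -0.72, -0.28 and 0.087 within pairs 1, 2 and 3, and the signals lay between the 26.8 and the 37.9 percentile of their arrays. For both genes the intervals leave out differences as large as any of the 4 Calb1 probe sets gave, which were -1.38 or beyond, on a scale on which dim probe sets are compressed.

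**Figure D2:**
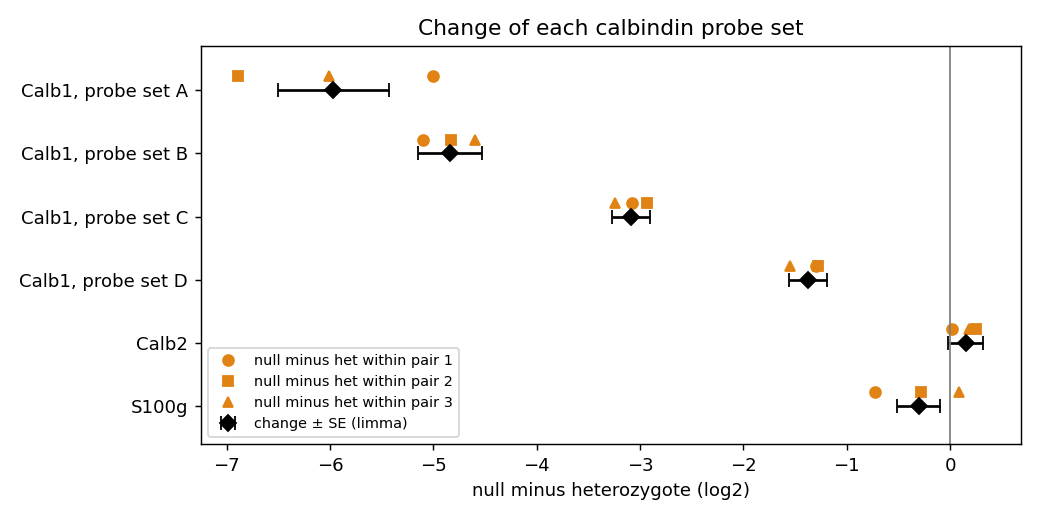
Null minus heterozygote difference (horizontal axis, log2) of each calbindin probe set: diamonds are the limma estimates with their SE, and orange markers the differences within each array pair. The Calb1 probe sets run from -5.97 (A) to -1.38 (D), Calb2 lies at 0.15 and S100g at -0.30.

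By the brightest probe set of each gene, Calb1 stood apart from the next. Among genes that fell, the next lowest was Plet1, a surface protein of epithelial progenitors, with 6.46, 5.84 and 6.34 on the null arrays against 9.45, 9.79 and 9.79 on the heterozygote arrays, a difference of -3.46. The gap between the genes just inside and just outside the choice was thus 5.97 against 3.46 log2 units in size, while by probe sets B, C and D Calb1 would have stood at -4.84, -3.08 and -1.38. The other probe sets of Plet1 gave -3.92 and -1.31, so the size of the gap depends on the probe set taken for each gene.

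As a list, the RNAs that work with the calbindins in moving calcium across epithelia had no shared direction of difference. In this list of entry channels, pumps, exchangers and hormone receptors 20 of 22 genes were measured, 10 with a positive and 10 with a negative difference. The list's median was -0.0068, against -0.019 for all genes. None rose or fell in limma, where 1.39% of all genes did, and 6 had an unadjusted p under 0.05 (30% of the list, against 9.73% of all genes). In 4 genes every null array lay below every heterozygote array and in 2 above, as for 7.16% and 6.49% of all genes.

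Trpv6, the apical entry channel, stood at 5.80, 6.09 and 5.72 on the null arrays against 7.20, 6.31 and 6.28 on the heterozygote arrays, and its difference of -0.73 ± 0.27 did not pass (limma, adjusted p = 0.376). Slc8a1, a sodium-calcium exchanger of the basolateral side, stood at 6.39, 7.44 and 7.10 on the null arrays against 7.60, 7.86 and 7.95 on the heterozygote arrays (-0.83 ± 0.27, limma adjusted p = 0.284). In both genes the arrays of the genotypes did not overlap, as for 7.16% of all genes in this direction. All 4 probe sets of Slc8a1 were negative, from -1.51 to -0.12.

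The calcium pumps Atp2b1 (0.39 ± 0.23) and Atp2b4 (0.56 ± 0.29) had positive differences that did not pass. Vdr, the vitamin D receptor that drives calbindin transcription in the gut, had a difference of -0.069 ± 0.23, with its other probe set at 0.40. The largest difference of the list belonged to Cldn19, a claudin of tight junctions, at -1.28 ± 0.34 (limma, adjusted p = 0.168). Slc8a2 (0.76 ± 0.31), another exchanger, and Rxra (0.76 ± 0.24), the partner receptor of Vdr, did not pass, but both rose when the array pair was a block (limma, adjusted p = 0.0256 for Slc8a2 and 0.0369 for Rxra). In that fit 485 of all 18193 genes rose. The other probe set of Slc8a2 gave 0.13, and those of Rxra gave 0.85 and 0.18. Trpv5 is not analysed here.

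Other EF-hand proteins gave 46 of 53 measured genes, of which 1 rose and 1 fell, against 0.808% and 0.583% of all genes. The list's median was 0.030. Vsnl1, a neuronal calcium sensor, stood at 7.88, 7.45 and 7.36 on the null arrays against 9.11, 9.61 and 9.07 on the heterozygote arrays. It fell by 1.70 on the log2 scale (limma, adjusted p = 0.0125), and its other probe set gave -1.37. The call was lost without null 2 (limma, adjusted p = 0.0546).

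Smoc2, a secreted matrix protein with EF hands, stood at 8.13, 7.81 and 7.80 on the null arrays against 6.84, 6.39 and 6.57 on the heterozygote arrays. It rose by 1.31 ± 0.18 (limma, adjusted p = 0.0167), and its other probe set gave 1.30. Without null 1, null 2, heterozygote 2 or heterozygote 3 it did not pass (limma, adjusted p up to 0.0854). Without null 2 no gene of this list passed, and without null 3 Hpca, a neuronal calcium sensor, also rose (limma, 1.85 ± 0.29, adjusted p = 0.0419). With the array pair as a block 3 rose and 1 fell, where 485 and 345 of all 18193 genes did. The added genes were Efhd1 (0.96) and Kcnip3 (0.80), and the other probe set of Kcnip3 gave -0.093. Closest to the calbindins in this list are Scgn (secretagogin), which has a like array of EF hands, and Pvalb (parvalbumin), a buffer of fast neurons. They had differences of -0.044 ± 0.15 for Scgn and -0.23 ± 0.20 for Pvalb, neither of which passed.

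The S100 family, to which S100g belongs, had 12 of 15 genes measured, and none passed in limma. Of these 2 had an unadjusted p under 0.05 (16.7%, against 9.73% of all genes). The median was 0.042, and 6 differences were positive and 6 negative. S100a10, the partner of annexin A2 at the membrane, stood at 10.99, 11.05 and 11.13 on the null arrays against 10.63, 9.40 and 10.01 on the heterozygote arrays. Its groups did not overlap, as for 6.49% of all genes in this direction, and the difference was 1.04 ± 0.29 (limma, adjusted p = 0.182). It passed without heterozygote 1 (limma, adjusted p = 0.0287). S100a4 (0.81 ± 0.30), S100a13 (0.63 ± 0.28) and S100a16 (-0.35 ± 0.28) did not pass.

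Of the pumps, channels and chaperones of intracellular calcium stores 21 of 22 were measured and none passed in limma. An unadjusted p under 0.05 was found for 3 (14.3%, against 9.73% of all genes), and the median was 0.028. The differences of largest size were -0.64 ± 0.28 for the release channel Itpr3, -0.54 ± 0.22 for the store sensor Stim2, 0.53 ± 0.15 for the mitochondrial uniporter Mcu and -0.42 ± 0.20 for the store protein Casq2.

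**Figure D3:**
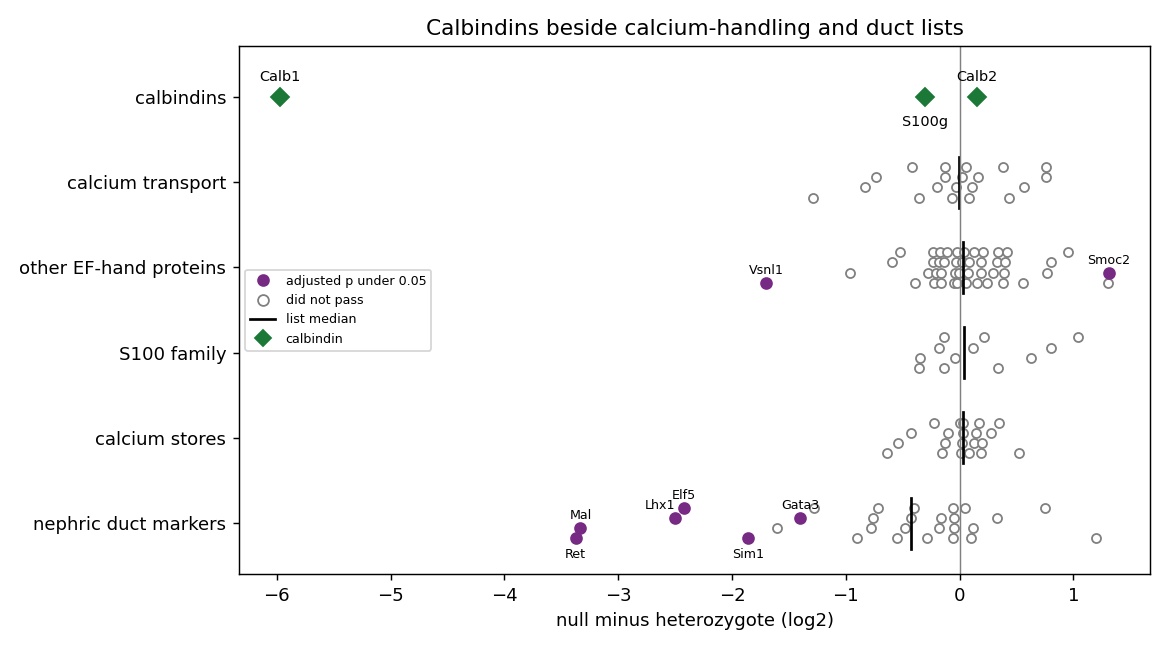
Null minus heterozygote difference (horizontal axis, log2) of the calbindins and of every measured gene of 4 calcium lists and the duct list; filled circles passed limma at an adjusted p under 0.05 and bars are list medians. Calb1 at -5.97 lies far to the left, the medians of the 4 calcium lists lie between -0.0068 and 0.042, and that of the duct list at -0.43.

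Calb1 was set beside other RNAs of the nephric duct, its best known site in the embryonic kidney. Like the other gene lists, this one was chosen with earlier results of these data known, so the counts are descriptions. Of 29 measured genes of 32, 6 fell and none rose, against 0.583% and 0.808% of all genes, and the median difference was -0.43. Of the 29, 23 differences were negative, as were 9755 over all 18193 genes. In the list 12 genes had every null array below every heterozygote array, as did 7.16% of all genes. Ret, the duct receptor for Gdnf, stood at 6.46, 8.003 and 5.86 on the null arrays against 9.91, 10.27 and 10.26 on the heterozygote arrays. Mal, a membrane proteolipid, stood at 6.26, 7.35 and 6.29 on the null arrays against 10.08, 9.90 and 9.92 on the heterozygote arrays. In both, null 2 was the highest null array, whereas in probe set A of Calb1 it was null 3. The order depends on the probe set, since the other one of Mal stood at 6.94, 6.57 and 6.28 on null arrays 1, 2 and 3. The fall was 3.37 ± 0.48 in Ret and 3.33 ± 0.29 in Mal, both smaller than the -5.97 of Calb1 probe set A and larger than the -3.08 and -1.38 of probe sets C and D.

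The transcription factors Lhx1 (-2.50 ± 0.22), Elf5 (-2.42 ± 0.42), Sim1 (-1.86 ± 0.16) and Gata3 (-1.40 ± 0.21) fell as well. Among genes of the list that did not pass, Gfra1 came closest (-1.60 ± 0.30, limma adjusted p = 0.0509). It fell with the pair block (limma, adjusted p = 0.0143). Etv5, Emx2 and Spry1, like Gfra1, had every null array below every heterozygote array, while Tfap2a and Tfap2b had every null array above. The epithelial genes of the list that did not pass were not alike. Cdh16, a kidney cadherin, had every null array below the heterozygote arrays (-1.28 ± 0.28, limma adjusted p = 0.0888) and fell with the pair block (limma, adjusted p = 0.00909). Wnt7b (-0.90 ± 0.29), Wfdc2 (-0.78 ± 0.34) and the transcription factor Tfap2b (1.19 ± 0.24) did not pass, and Tfap2b rose with the pair block (limma, adjusted p = 0.0112). Epcam, an epithelial adhesion molecule, stood at 11.29, 11.497 and 11.31 on the null arrays against 11.62, 11.36 and 11.30 on the heterozygote arrays (-0.058 ± 0.16). Krt8, a simple keratin, differed by -0.052 ± 0.25 and Cdh1, or E-cadherin, by -0.29 ± 0.30, and neither passed. The sign of the Epcam and Krt8 differences turned with the arrays used. The samples were bulk, so fewer duct cells and less Calb1 RNA per duct cell cannot be told apart. Without null 1 or heterozygote 3, 3 genes of the list fell, without null 2 or heterozygote 2 it was 4, and with the array pair as a block 10 fell and 2 rose. Of all 18193 genes 36, 43, 54, 49 and 345 fell in these fits, in that order, and 485 rose with the pair block. Sim1, Mal and Lhx1 passed in each fit without 1 array. Ret was lost without null 1, heterozygote 2 or heterozygote 3, Elf5 without null 1, null 2 or heterozygote 3, and Gata3 without null 1, null 2, heterozygote 2 or heterozygote 3.

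**Figure D4:**
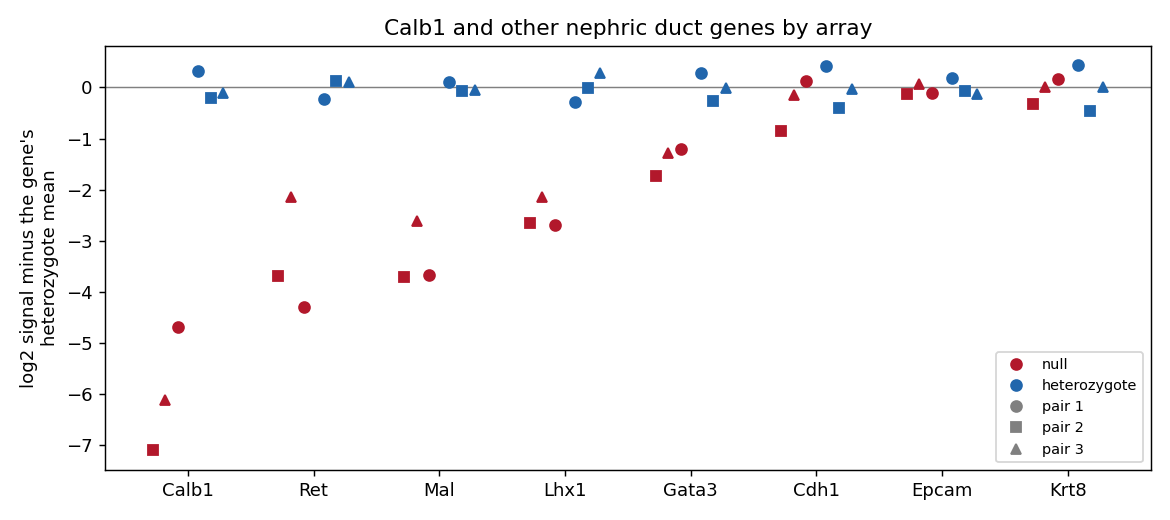
Log2 signal of Calb1 (probe set A) and 7 other duct genes on each array, drawn as the difference from that gene's heterozygote mean (vertical axis); red markers are null arrays, blue ones heterozygote arrays and shapes array pairs. Null arrays of Calb1, Ret, Mal, Lhx1 and Gata3 lie below their heterozygote arrays, while those of Cdh1, Epcam and Krt8 overlap with them.

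The genes whose signal was most like that of Calb1 probe set A were taken as the 8 with the highest Pearson r over the 6 arrays, among 564 genes with a range of at least 2 log2 units. They were Stk32b, Lrrc4, Sim1, Ipcef1, Btbd11, Slc7a8, Hs3st3b1 and Mal2, with r from 0.979 to 0.994. With 3 arrays on either side of a wide gap, r follows mostly the genotype, and the choice fixes the direction, so these are descriptions. All 8 were lower on every null array, with differences from -2.71 (Mal2) to -1.63 (Hs3st3b1). The choice also favours genes with the order of null arrays that probe set A had, so nothing is read from that order. Stk32b, a kinase gene, stood at 5.37, 5.47 and 5.89 on the null arrays against 7.60, 7.19 and 7.45 on the heterozygote arrays. Slc7a8, an amino acid transporter, stood at 6.01, 6.67 and 6.58 on the null arrays against 8.83, 8.64 and 8.42 on the heterozygote arrays.

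Calb1 and Calb2 also mark neurons, and Calb2 mesothelium, so those lists were read beside them. Of 23 measured neuron genes of 24, Nefm (1.44 ± 0.17), Map2 (1.90 ± 0.32) and Stmn2 (2.64 ± 0.47) rose and Elavl4 (-1.54 ± 0.29) fell, against 0.808% and 0.583% of all genes. In this list 7 had an unadjusted p under 0.05 (30.4%, against 9.73% of all genes). Gad1 (-0.058 ± 0.16) and Gad2 (0.056 ± 0.17) of inhibitory neurons and Tubb3 (0.14 ± 0.31) did not pass. The list's mean log2 signal ranged from 5.86 to 6.16 on the null arrays and from 5.64 to 5.79 on the heterozygote arrays. Of these calls only Nefm held in each fit without 1 array, while Map2 and Elavl4 were lost in each such fit except that without heterozygote 1, and Stmn2 without heterozygote 1 or any null array. These losses are of the brightest probe set. The other probe sets gave -1.77 and -1.93 for Elavl4, 1.41, 1.71 and 0.19 for Map2, and 2.25 for Stmn2. Of 15 measured mesothelium genes of 16, Bnc2 (1.04 ± 0.15) and Podxl (1.72 ± 0.27) rose, against 0.808% of all genes. In this list 8 had an unadjusted p under 0.05 (53.3%, against 9.73% of all genes). Krt19 (1.21 ± 0.25) and Msln (-0.89 ± 0.28), the mesothelin gene, did not pass. The mean log2 signal was 7.50 to 7.70 on the null and 7.12 to 7.61 on the heterozygote arrays. Neither mesothelium call held without null 1, null 2, heterozygote 2 or heterozygote 3, and that of Podxl also failed without null 3. Without heterozygote 1, and with the pair block, 4 rose, where 208 and 485 of all 18193 genes did.

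Markers of other cells that the dissection or sort could hold were read in the same way. Of 15 stromal genes 6 rose (Pdgfrb, Tbx18, Postn, Col1a2, Lum and Dcn, by 1.51 to 2.69) and Meox2 fell (-1.77 ± 0.22), against 0.808% of all genes that rose and 0.583% that fell. Of the 15, 14 had an unadjusted p under 0.05 (93.3%, against 9.73% of all genes). The list had a mean log2 signal of 9.32 to 9.58 on the null and 7.93 to 8.52 on the heterozygote arrays. The count that rose was 4 without null 1 or heterozygote 3 and 10 without heterozygote 1, with array weights or with the pair block. Of all 18193 genes 50, 41, 208, 341 and 485 rose in these fits, in that order. Col1a2 was lost without null 1, Dcn without heterozygote 2 or 3, and Lum without null 1, null 3 or heterozygote 3. None of 16 macrophage genes passed in limma, 9 having an unadjusted p under 0.05 (56.2%, against 9.73% of all genes). Differences were positive in 15 of the 16, as in 8438 of all 18193 genes, among them Mrc1 (2.39 ± 0.57), C1qb (1.75 ± 0.78), C1qc (1.67 ± 0.52) and Tyrobp (1.49 ± 0.39). With the pair block 5 of them rose (limma, adjusted p = 0.0204 for Laptm5, 0.0218 for C1qb, 0.0426 for C1qc, 0.0346 for Mrc1 and 0.0133 for Tyrobp), where 485 of all 18193 genes did. Mrc1 also rose without heterozygote 1 (limma, adjusted p = 0.0256) and with array weights (limma, adjusted p = 0.0306). Their mean was 6.11 to 7.35 on the null and 5.15 to 6.14 on the heterozygote arrays. None of 10 endothelial genes passed in limma, 1 having an unadjusted p under 0.05 (10%, against 9.73% of all genes). Their mean was 5.26 to 5.59 on the null and 5.34 to 5.74 on the heterozygote arrays. Their differences of largest size were those of Erg (-0.88), Cdh5 (0.46), Kdr (0.38) and Cldn5 (-0.36). The other probe set of Cdh5 gave -0.32. Erg fell with the pair block (limma, adjusted p = 0.0295), where 345 of all 18193 genes did. None of 8 erythroid genes passed in limma, 0 having an unadjusted p under 0.05, and their mean was 6.64 to 7.44 on the null and 6.30 to 7.21 on the heterozygote arrays. Klf1 (0.88), Hba-x (0.67), Hbb-bh1 (0.53) and Hbb-y (0.40) had the differences of largest size. The part of these cells in the Calb1 difference was not tested.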

How the data were processed

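RNA of EGFP-positive cells was amplified from 10 ng of total RNA and hybridized to 1-colour Affymetrix arrays, per the labels' protocols. The deposited values are log2 signals per probe set, made with RMA per the submitters' processing notes, which name affy and limma too but no version. The RMA settings are unknown here. The labels were not checked against Pax2, which is not analysed here. Of 45101 probe sets 34958 had 1 gene symbol in the platform annotation, 932 had several and 9211 were not listed. Control probe sets were left out, and 1 probe set, that of highest mean signal, stood for each gene.

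The genotypes were compared by limma 3.58.1 under R 4.3.3 (functions lmFit and eBayes, two-sided, Benjamini-Hochberg over 18193 genes, no covariates or filter), and the fit was tested on simulated data. Members and gene lists were chosen with earlier results of these data known. Named genes were fixed calcium and duct genes plus, per list, members that passed or otherwise the 4 of largest difference. Plet1, Hpca, Efhd1, Kcnip3, Cabp1, Cdh16, Wnt7b, Wfdc2, Tfap2a, Tfap2b, Gfra1, Etv5, Emx2, Spry1 and Laptm5 were added after their values were seen. Wt1 was also named outside this rule. Pairs of arrays came from the closest of 15 matchings over 14 hybridization-control probe sets (summed distance 1.83, against 4.93 for the next). Percentiles are ranks within an array. The alternatives were a robust or intensity-dependent prior, removal of genes under the 33rd percentile, quantile renormalization, median centring, array weights, the mean over probe sets, single probe sets, omission of each array or pair, and the pair block.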

Additional observations from a re-analysis of the deposited data

How the results depend on the processing

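The Calb1 difference was negative in each of 18 alternatives, between -5.40 and -6.61 with 1 array left out, and was -3.82 as the mean over its probe sets. Since Calb1 was chosen for its fall on these same arrays, nothing is read from the constant sign. Calb2 (0.047 to 0.26) and S100g (-0.50 to -0.096) kept their sign and did not pass in 17 alternatives. The filter on dim genes removed both. The number of changed genes (253) ranged from 84 to 318 with 1 array left out, and was 553 with array weights, 830 with the pair block, 1 without pair 2 and 2 without pair 3. The calcium transport list had 0 changed genes with 1 array left out and 2 with the pair block. The other EF-hand proteins had 0 to 3 with 1 array left out, 4 with the pair block, 1 without pair 1 and 0 without pair 2 or 3, and array weights added Cabp1. The S100 family had 0 to 1 with 1 array left out and 1 with array weights. The calcium stores had 0 throughout. Named genes that did not pass turned sign as follows: with array weights Epcam (0.012), with the mean over probe sets Gad2 (-0.030) and Vdr (0.17), without pair 1 Cldn5 (0.16), Epcam (0.066), Gad2 (-0.013) and Krt8 (0.060), without pair 2 Hbb-bh1 (-0.098), and without pair 3 Scgn (0.052), Tubb3 (-0.29) and Vdr (0.059). With 1 array left out the range was -0.12 to 0.039 for Epcam, -0.28 to 0.17 for Krt8, -0.062 to 0.13 for Gad2, -0.11 to 0.027 for Gad1, -0.28 to 0.055 for Vdr, -0.037 to 0.99 for Cdh5, -0.14 to 1.19 for Hbb-bh1, -0.0022 to 0.71 for Hbb-y, -0.10 to 0.018 for Scgn and -0.18 to 0.46 for Tubb3. Among named genes that passed, Elavl4, Elf5 and Stmn2 were lost with renewed quantile normalization and with single probe sets, Elavl4 also with the robust prior, and Map2 with single probe sets. The losses with single probe sets are of each gene's brightest probe set, and another probe set of each of these genes passed in that fit. The cause of these shifts was not tested. The labels give the genotypes no shared replicate numbers, so no fit was blocked on such numbers, and the pair block uses the pairs found in the data.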

Other observations

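A pair of S100 genes next to the calbindin family, chosen after their values were seen, stood out on single arrays in both genotypes. S100a9 stood at 4.20, 6.34 and 4.22 on the null arrays, against 7.28, 4.12 and 4.42 on the heterozygote arrays (log2). S100a8, its partner in neutrophils, stood at 4.38, 5.40 and 4.67 on the null arrays, against 5.76, 4.45 and 4.36 on the heterozygote arrays. Null 2 and heterozygote 1, which are not a matched pair, were the highest array of their genotype in both genes.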
